A study of Mus musculus with 8 samples.

Results

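The 912 peaks described here are the broad regions of SMAD4 binding that lay beside a transcript start in mouse limb buds at embryonic stage E10.5 and had no counterpart at E9.5. They were selected on the peak coordinates alone, from the 6185 peaks of the E10.5 list. A member did not overlap any of the 2073 E9.5 peaks by as much as 1 bp, had its centre within 5 kb of the nearest annotated transcript 5′ end and was at least 4000 bp wide. Of 5798 peaks of E10.5 alone, 3030 had their centre within 5 kb of a start, and the 912 broad ones were 30.1% of these and 14.7% of the E10.5 list. In all, the 2 lists hold 8258 peaks.

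SMAD4 was detected by chromatin immunoprecipitation and sequencing (ChIP-seq) with the M2 antibody to a FLAG tag. All embryos, those for the input controls included, were of the NMRI strain and homozygous for a knock-in allele (Smad4Flag, also written Smad4 3xF/3xF) in which a 3xFLAG tag is joined to the C-terminal end of the endogenous SMAD4 protein. The 8 samples are 2 SMAD4 ChIP and 2 input DNA samples per stage, each made from pooled embryos, about 80 per replicate at E9.5 and about 100 at E10.5. The E9.5 samples held forelimb buds with trunk tissue, and the protocol dates them to E9.75. The E10.5 samples held fore- and hindlimb buds by the tissue label and forelimb buds by the source label, so tissue and stage cannot be told apart in what is called E10.5 alone. Both replicates of a stage were merged into 1 list before deposit, so every peak has 1 score, no value below carries an error between replicates, and the sequencing depth is unknown. The lists do not name the unit of the score. By the study's methods each merged peak kept the best MACS p-value of its calls, so a higher score is read here as a more significant call, which is not a measure of how strongly SMAD4 was bound. Peak lists hold no expression levels, so the tissue label was not checked against marker genes.

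SMAD4 is the common partner of the receptor-activated SMAD proteins that carry BMP, TGF-β and activin signals from the cell surface to chromatin. SMADs contact short DNA elements, among them CAGAC and the GC-rich GGCGCC, and depend on other transcription factors for much of their specificity. In the early limb bud, BMP signals act in the mesenchyme and the apical ectodermal ridge, together with SHH, FGF and WNT signals, on outgrowth and digit patterning. Many mammalian genes start within CpG islands, stretches of DNA rich in G, C and undepleted CpG dinucleotides, and this holds for most widely expressed genes and many developmental regulators.

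The DNA just upstream of a start is shown for 7 genes whose start lay inside a member: Sox12 from the 10 best-scored members, Fgf4 from the FGF list, Hoxd12, Tbx3, Sall1 and Irx3 from the list of limb transcription factors, and Chd4 from the list of chromatin remodellers. Each run is the 200 bases before a transcript 5′ end, 5′ to 3′ on the gene's own strand, from the mm9 assembly. For Chd4 this is an internal start, and its run lies inside the gene, downstream of the 5′-most end. Capitals mark CAGAC (also within CAGACC) or GGCGCC, on either strand, so that GTCTG is CAGAC read on the opposite strand.

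Sox12, chr2:152223783-152223982, minus strand: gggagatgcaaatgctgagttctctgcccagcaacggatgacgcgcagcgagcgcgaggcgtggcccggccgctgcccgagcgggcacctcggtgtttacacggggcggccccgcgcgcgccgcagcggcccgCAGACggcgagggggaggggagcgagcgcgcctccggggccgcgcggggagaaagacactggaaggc

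Fgf4, chr7:152047091-152047290, plus strand: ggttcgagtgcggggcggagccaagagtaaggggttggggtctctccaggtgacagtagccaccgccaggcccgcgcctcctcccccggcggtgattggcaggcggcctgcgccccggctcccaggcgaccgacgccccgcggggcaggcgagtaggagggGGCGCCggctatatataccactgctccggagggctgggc

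Hoxd12, chr2:74512786-74512985, plus strand: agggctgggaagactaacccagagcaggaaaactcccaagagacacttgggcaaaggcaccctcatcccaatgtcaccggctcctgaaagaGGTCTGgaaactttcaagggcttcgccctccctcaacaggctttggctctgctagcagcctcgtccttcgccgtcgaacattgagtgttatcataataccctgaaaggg

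Tbx3, chr5:120120478-120120677, plus strand: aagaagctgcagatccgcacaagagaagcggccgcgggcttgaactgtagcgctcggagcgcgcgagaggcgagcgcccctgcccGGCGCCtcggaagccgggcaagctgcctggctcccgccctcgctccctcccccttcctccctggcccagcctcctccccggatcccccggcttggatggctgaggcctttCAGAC

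Sall1, chr8:91568062-91568261, minus strand: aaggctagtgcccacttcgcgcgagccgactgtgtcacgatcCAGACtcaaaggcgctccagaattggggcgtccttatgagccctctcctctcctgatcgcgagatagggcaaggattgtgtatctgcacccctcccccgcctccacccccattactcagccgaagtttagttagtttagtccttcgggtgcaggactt

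Irx3, chr8:94325554-94325753, minus strand: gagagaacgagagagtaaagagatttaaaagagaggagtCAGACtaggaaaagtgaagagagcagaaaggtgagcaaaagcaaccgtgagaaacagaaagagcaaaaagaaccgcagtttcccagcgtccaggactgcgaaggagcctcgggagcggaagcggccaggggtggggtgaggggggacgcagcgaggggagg

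Chd4, chr6:125046387-125046586, plus strand: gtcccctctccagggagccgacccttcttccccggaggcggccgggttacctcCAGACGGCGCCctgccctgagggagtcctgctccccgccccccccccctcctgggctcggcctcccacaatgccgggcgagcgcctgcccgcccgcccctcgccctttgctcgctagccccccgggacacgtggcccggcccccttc

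These runs were chosen because they hold an element. Of 100 named starts, 51 had such a window inside the peak, off chromosome 18 and free of annotated exons, and 18 of the 51 held an element. The runs printed above are a selection from these 18. The run at Lmx1b is among the 18 but is not printed, because it looked like coding sequence that the annotation lacks. In the 200 bases upstream of all 22350 protein-coding genes, CAGAC occurred in 34.1%, CAGACC in 10.9%, GGCGCC in 9.92% and the palindrome GTCTAGAC in 0.0984%, each counted on both strands. CAGACC contains CAGAC, and GTCTAGAC holds GTCT joined to its own complement without holding CAGAC. In Chd4 the CAGAC and GGCGCC elements abut in 1 run of capitals. The match of a short motif is a description of the letters and does not show where the protein was bound.

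The palindrome GTCTAGAC stood in the 300 bp around the centre of 1 member, at Pdgfb, the gene of a platelet-derived growth factor chain. This peak, chr15:79839669-79847261, was 7593 bp wide, scored 79.6 and was centred 1.77 kb downstream of the Pdgfb start in an intron. The 50 bases around the site are shown on the plus strand, with the palindrome in capitals.

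Pdgfb, chr15:79843325-79843374, plus strand: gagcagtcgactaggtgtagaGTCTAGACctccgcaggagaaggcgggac

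The members covered 5.49 Mb, which was 27.96% of the 19.7 Mb covered by the E10.5 list. Their width, which the rule set from below, had a median of 5534 bp with quartiles of 4673 and 6951 bp. There were 332 members under 5 kb, 545 from 5 kb to under 10 kb and 35 of 10 kb or wider, up to 12116 bp. Scores ran from 32.8 to 309.3 with a median of 65.4, and 587 members scored at or above the E10.5 median of 59.8. A score of 100 or more was given to 132 members (14.5%) and a score under 50 to 36. Among narrower peaks of E10.5 alone near a start, 8.78% scored 100 or more. Of the 45 broad peaks near a start that overlapped an E9.5 peak, 55.6% did. The share was 5.93% of the 708 broad peaks of E10.5 alone farther than 5 kb from a start. These shares were not tested. Of the members, 27 stood among the 100 best-scored peaks of the E10.5 list.

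The 10 best-scored members lay at genes of varied function, and the nearest start of each was CpG-island-like as defined further on. The highest score, 309.3, belonged to the peak at Bbc3, which encodes the pro-apoptotic BH3-only protein PUMA. It spanned chr7:16893666-16900214 (6549 bp), ranked 10 in the whole E10.5 list and was centred in an intron 1.14 kb downstream of the start. Next came Sox12, a SoxC transcription factor gene, at chr2:152220244-152225395 with a score of 231.4 and its centre in a coding exon. Gnas, the imprinted gene of the stimulatory G protein α subunit, followed with 226.4, and Trim71, a let-7-regulated ubiquitin ligase of early embryos, with 225.6. Pitpnm1, a phosphatidylinositol transfer protein gene, scored 224.8. The Irx5 peak, chr8:94879324-94884907, scored 215.2 and was centred in a coding exon of this Iroquois homeobox gene. Ctbp2, a transcriptional corepressor, scored 208.9, Gse1 206.1, the homeobox gene Six5 202.8 and the zinc-finger gene Zfp651 202.2. Of these peaks, Six5 (9325 bp) and Gse1 (9995 bp) were also wide, whereas Ctbp2 (4351 bp), Trim71 (4766 bp) and Gnas (4920 bp) were near the lower width limit.

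The 10 widest members had scores from 33.7 to 107.8. The widest, 12116 bp at chr15:89198243-89210358, scored 58.8 and held the starts of 4 protein-coding genes: Sco2, a copper chaperone of cytochrome c oxidase, Tymp, Odf3b and Ncaph2, a condensin II subunit. A peak of 11926 bp at Fdxr, the mitochondrial ferredoxin reductase gene, scored 55.5, and one of 11797 bp at Chd5, a chromatin remodeller, 53.9. The 11739 bp at Lingo3 scored 107.8 and the 11646 bp at Erf, an ETS-family repressor downstream of ERK, scored 101.8. Others of the 10 widest lay at Adora2a (70.4), the lincRNA 2210008F06Rik (88.7), Crb3 (33.7) and Fam101a (72.1). Of the 10, 2 scored 100 or more, against 14.5% of all members.

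**Figure D1:**
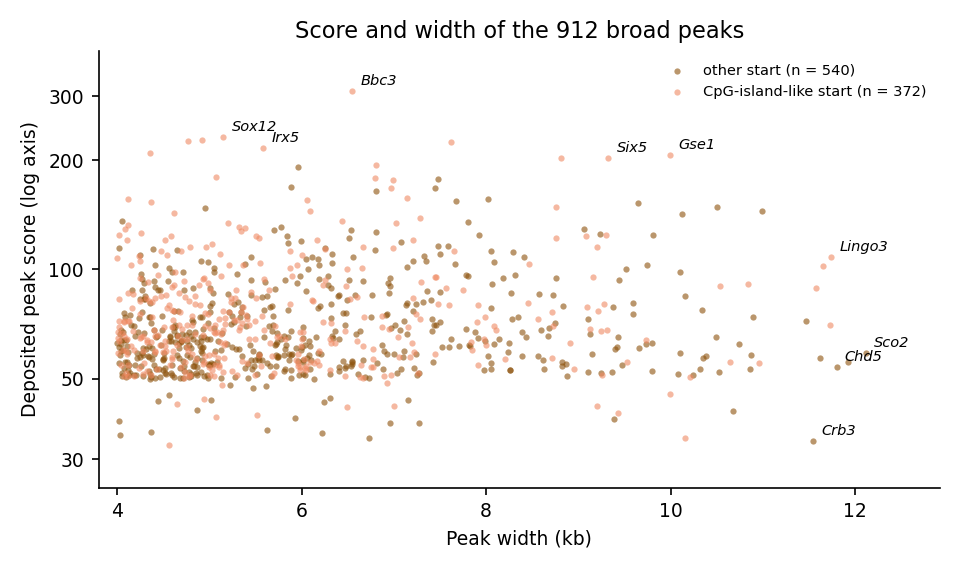
Each point is 1 of the 912 members, with its width in kb on the horizontal axis and its deposited score, in no named unit, on a logarithmic vertical axis. Light points are the 372 members at a CpG-island-like start and dark points the 540 others. Bbc3, with a score of 309.3, stands above all other members, and the widest peak, at Sco2, has a score of 58.8.

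The limits of the rule cut through a continuous range. Just inside the width limit lay 1520401A03Rik (4000 bp, score 62.9), Bcl7a, a BAF complex subunit gene (4004 bp, 107.5), Ttc7 (4005 bp, 64.6) and Cdh11, a mesenchymal cadherin gene (4010 bp, 58.9). Just outside it lay Sox4, a SoxC gene like Sox12 (3997 bp, 108.2), Magi1 (3993 bp, 65.7), Npas4 (3990 bp, 50.02) and Srgap2 (3987 bp, 92.3). By distance, the members at Espnl and the U3 RNA were centred 4.96 and 4.90 kb from the start, and the nearest broad peaks outside lay at 5.03 kb from a Phf19 start and at -5.04 kb, upstream, from a Rara start. The member closest to an E9.5 peak, at Gm11744, was 152 bp away from it, followed by Zbtb39 at 624 bp and Zfp574 at 1334 bp. In all, 22 members had an E9.5 peak within 10 kb and 227 (24.9%) within 100 kb, and the median gap was 237 kb. Among narrower peaks of E10.5 alone near a start, 23.5% had an E9.5 peak within 100 kb.

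A member typically ran over the nearest start in both directions, further downstream than upstream. That start was the 5′-most end of its gene in 373 members only, so the DNA upstream of it can still belong to the gene. The nearest start lay inside the peak in 807 members (88.5%, 95% Wilson interval 86.3 to 90.4). In these 807, the peak reached a median of 2.38 kb upstream and 3.26 kb downstream. Broad peaks shared with E9.5 that held the start reached 2.26 and 2.73 kb, and narrower peaks 0.887 and 1.14 kb. At 2 kb upstream of the start 58.3% of members still covered the position, and at 2 kb downstream 79.2% did. The narrower peaks covered the same positions in 6.19% and 14.0% of cases, a difference that the width rule sets. Protein-coding gene bodies filled a median of 87.9% of a member and exons 24.9%. The centre lay in an intron in 506 members (55.5%), in a coding exon in 149 (16.3%), in an annotated UTR in 88 (9.65%), in a non-coding exon in 50 (5.48%) and between genes in 119 (13.0%). In 118 members (12.94%) at least 1 protein-coding gene lay inside the peak from end to end.

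**Figure D2:**
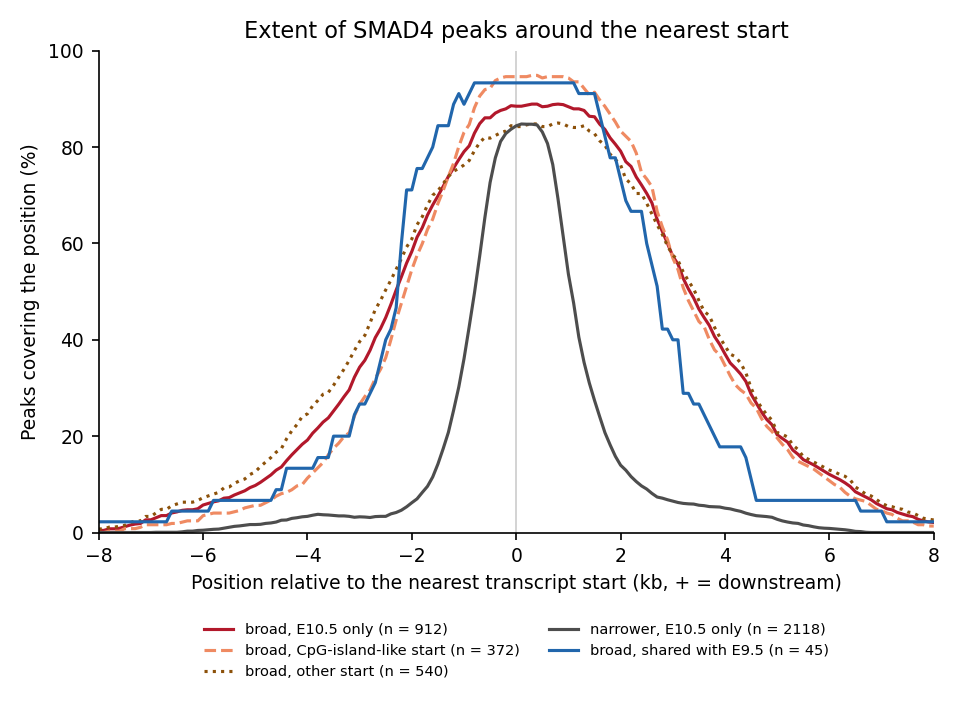
For each position from 8 kb upstream to 8 kb downstream of the nearest start (horizontal axis, kb), the lines give the percentage of peaks covering it. The solid red line is all 912 members, the broken lines are members at CpG-island-like and other starts, and the grey and blue lines are narrower peaks and shared broad peaks. Members cover 58.3% at 2 kb upstream against 79.2% at 2 kb downstream.

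Some members took in more than 1 gene or lay side by side. A protein-coding start lay inside 774 members, 1 gene in 664 of them, 2 in 101, 3 in 7 and 4 in 2. The second peak with 4 genes, at 2900092E17Rik on chromosome 7, held the starts of Prrt2, Mvp, the gene of the major vault protein, and Gm20418 as well. On chromosome 17, 1 member held the starts of C2, a complement component, Zbtb12 and Ehmt2, an H3K9 methyltransferase, and another those of Tomm6, Prickle4 and Frs3. Another E10.5 peak lay within 1 kb of 59 members (6.47%) and within 10 kb of 229 (25.1%), against 1.89% and 9.82% of narrower peaks. The 708 broad peaks of E10.5 alone farther than 5 kb from a start (6.64% and 22.9%) and the 45 broad peaks near a start that were shared with E9.5 (11.1% and 22.2%) had shares nearer to those of the members, and this was not tested. For 32 genes the same gene was nearest to more than 1 member. Gata2, a haematopoietic and neural transcription factor gene, had a peak of 4623 bp (score 98.6) and one of 9196 bp (115.5) next to each other, and Rai1 and Pitpnm2 were among 3 genes with 3 members each. The counts below are of peaks, and whether neighbouring peaks are separate binding events was not tested.

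By chromosome, the members were counted beside the whole E10.5 list, of which they were 14.7%. Chromosome 11 held 102, chromosome 4 held 96, and chromosomes 2 and 7 held 85 each. Relative to 1000 protein-coding genes there were 40.8 members in all, with 70.8 on chromosome 4, 64.0 on chromosome 15, 61.7 on chromosome 11 and 14.7 on chromosome 14. As a share of the E10.5 peaks on the same chromosome, members made up from 6.22% on chromosome 14 to 23.2% on chromosome 17 among the autosomes, with 21.3% on chromosome 4, 20.5% on chromosome 11 and 17.8% on chromosome 15. These shares were not tested. The X chromosome had 0 of 912 members, which allows a share of up to 0.329%, taken as 3 of 912. The E10.5 list as a whole had 68 peaks on X, 47 of them narrower peaks near a start. By the study's methods embryos of both sexes were used, and the part of sex in this count was not tested.

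The first comparison asked whether the start nearest to the peak centre is of the same kind in broad and narrower peaks. The comparators were the 2118 narrower peaks of E10.5 alone, under 4000 bp and with the same distance limit, and the 45 broad peaks near a start that overlapped an E9.5 peak. A start was called CpG-island-like when the 500 bp around it had a GC content of at least 50% and an observed-to-expected CpG ratio of at least 0.6. Only the start nearest to the centre was classed. A CpG-island-like start elsewhere inside a wide peak was not counted, so the shares do not show how many peaks hold one. Of the members, 372 of 912 (40.8%, 95% interval 37.6 to 44.0) had a CpG-island-like nearest start, against 1481 of 2118 narrower peaks (69.9%). The difference was -29.1 percentage points (95% Newcombe interval -32.8 to -25.3, adjusted exact p = 1.7e-49). Among the shared broad peaks 28 of 45 (62.2%) had such a start, a difference of -21.4 points (-34.5 to -6.49, adjusted exact p = 0.0138). This call against the shared broad peaks was lost in 4 of 11 alternative settings, in which the difference lay between -30.6 and -18.5 points. All tests between peak sets are two-sided Fisher's exact tests with Benjamini-Hochberg adjustment over 16 tests. Peaks are not replicates, and p describes these lists.

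The CpG difference varied with the distance between the peak centre and the start, which was a median of 1.05 kb in members and 0.244 kb in narrower peaks. With the centre within 250 bp of the start, 57 of 142 members (40.1%) were at a CpG-island-like start, against 87.2% of 1073 narrower peaks. From 0.25 to 0.5 kb the shares were 45.1% and 76.0%, and from 0.5 to 1 kb 48.9% and 56.8%. Between 1 and 2.5 kb the order turned, with 42.6% of 319 members and 23.9% of 163 narrower peaks. Width sets how far a peak reaches from its centre, with a median of 5534 bp in members and 2122 bp in narrower peaks. In this band the peak sets therefore also differ in how readily a peak covers the start, and the part of this was not tested. From 2.5 to 5 kb 39 of 156 members and 53 of 215 narrower peaks had one. Members thus stayed between 40.1% and 48.9% out to 2.5 kb, whereas narrower peaks fell from 87.2% to 23.9%. Among peaks whose centre window had a GC content of 50 to under 60%, the shares were 32.6% and 40.0% and the adjusted exact p was 0.0709.

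**Figure D3:**
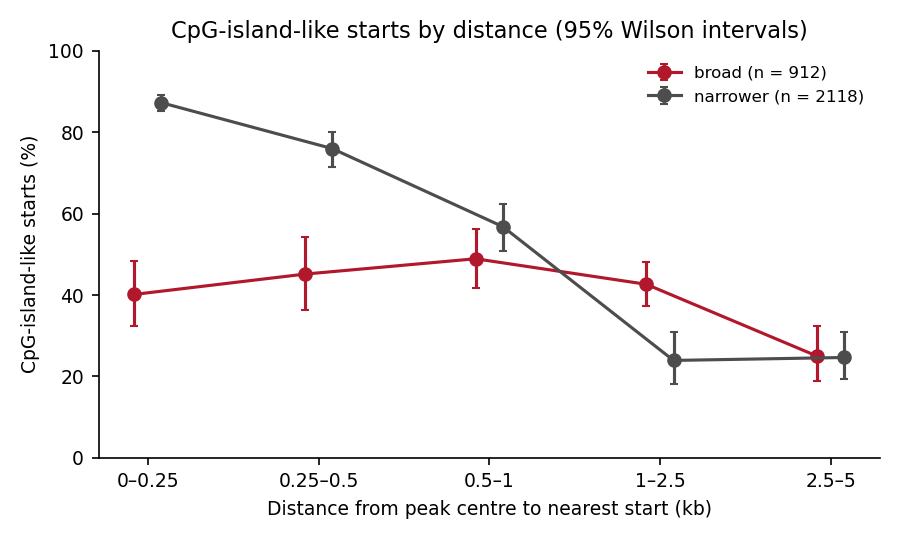
The vertical axis gives the percentage of peaks whose nearest start is CpG-island-like, in 5 bands of the distance from peak centre to start (horizontal axis, kb). Red points are members, grey points narrower peaks and bars 95% Wilson intervals. The red points lie below the grey ones under 1 kb (40.1% against 87.2% in the nearest band) and above them from 1 to 2.5 kb (42.6% against 23.9%).

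The annotated start nearest to a member was often not the outermost start of its gene. It was the 5′-most end of the gene in 373 members (40.9%), against 48.1% of narrower and 53.3% of shared broad peaks. Within the members it was the 5′-most end in 205 of the 372 at a CpG-island-like start (55.1%, 95% interval 50.03 to 60.08) and in 168 of the 540 at another start (31.1%, 27.4 to 35.1). These groups also differed in what the peak lay on. Protein-coding gene bodies filled a median of 76.7% of the peaks at CpG-island-like starts and 96.2% of the others, and exons 20.05% and 27.8%. Their median widths were 5302 and 5726 bp and their median scores 69.4 and 63.5. When only the 5′-most end of each gene was used as its start, 662 peaks fulfilled the rule, and 55.9% of them were CpG-island-like, against 74.9% of narrower peaks (adjusted exact p = 3.9e-18).

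Other features of the start differed less. A protein-coding start was nearest in 824 members (90.4%), against 91.6% of narrower peaks, a difference of -1.29 points (-3.66 to 0.862, adjusted exact p = 0.406), and 91.1% of shared broad peaks. The other members were nearest to processed transcripts (41), lincRNAs (22), pseudogenes (10), miRNAs (7) and other small or immunoglobulin genes. A divergent start, with another protein-coding gene on the opposite strand starting within 1 kb upstream, was found in 47 members (5.15%) and 181 narrower peaks (8.55%), a difference of -3.39 points (-5.18 to -1.41, adjusted exact p = 0.00299). The peak centre lay downstream of the start in 62.5% of members and 67.0% of narrower peaks (-4.50 points, -8.25 to -0.805, adjusted exact p = 0.0350). Under alternative settings the call on divergent starts was lost in 3 of 10 (down to -1.28 points with 5′-most ends) and the call on the side of the centre in 4 of 10, down to -2.59 points. Against the shared broad peaks, the differences in divergent starts (-1.51 points, -12.8 to 3.15) and in the side of the centre (4.72 points, -8.91 to 19.5) had wide intervals and an adjusted exact p of 0.654 each.

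The second comparison asked whether SMAD-binding elements were as frequent at the centre of broad peaks. The centre is the midpoint of the peak and not its summit, which the paper used for its motif search. A 300 bp window is a smaller part of a broad peak than of a narrower one, and it need not hold the bound site. In the 300 bp around the centre, CAGAC was present in 529 of 912 members (58.0%) and 1002 of 2118 narrower peaks (47.3%), a difference of 10.7 points (6.83 to 14.5, adjusted exact p = 3.7e-07). The longer CAGACC was present in 23.0% and 17.7%, a difference of 5.37 points (2.26 to 8.61, adjusted exact p = 0.00299). This CAGACC call held in only 9 of 12 alternative settings, and in windows at the start, where it was lost, the difference was 2.88 points. GGCGCC was present in 84 members (9.21%) and 525 narrower peaks (24.8%), a difference of -15.6 points (-18.1 to -12.85, adjusted exact p = 3.2e-24). In 300 bp windows at the start, 19.96% of members and 28.1% of narrower peaks had it, a smaller difference of -8.18 points (adjusted exact p = 1.5e-05). Against the 45 shared broad peaks, GGCGCC was also less frequent (22.2% there, -13.0 points, -27.2 to -3.12, adjusted exact p = 0.0204), and the differences in CAGAC (9.12 points, -5.36 to 23.4, adjusted exact p = 0.406) and CAGACC (0.80 points, -13.5 to 10.9, adjusted exact p = 1) had wide intervals. The GGCGCC call against shared broad peaks was lost in 6 of 12 alternative settings, and in 300 bp windows at the start the shares were 19.96% and 20%. GTCTAGAC was present in 1 member, 4 narrower peaks and 1 shared broad peak. Over all 6185 E10.5 windows of this length, CAGAC was present in 53.2%, CAGACC in 19.7%, GGCGCC in 13.1% and GTCTAGAC in 0.420%. The 708 broad peaks of E10.5 alone farther than 5 kb from a start, for which no test was made, had CAGAC in 59.3%, CAGACC in 20.8% and GGCGCC in 2.40%, and a CpG-island-like nearest start in 34.7%.

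These motif differences went along with base composition. The centre windows of members had a median GC content of 55.5%, those of narrower peaks 64.3%. Where the window had 50 to under 55% GC, CAGAC was present in 63.03% of 284 members and 61.7% of 316 narrower peaks, and at 55 to under 60% in 60.6% and 55.9%. GGCGCC was present in 4.53% of members and 10.4% of narrower peaks at 55 to under 60% GC, and in 43.1% and 40.8% at 65% or more. Over both bands from 50 to under 60%, the difference in CAGAC was 2.83 points (adjusted exact p = 0.578), that in CAGACC 0.83 points (adjusted exact p = 0.837) and that in GGCGCC -3.57 points (adjusted exact p = 0.0709). These bands were set after seeing the data.

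**Figure D4:**
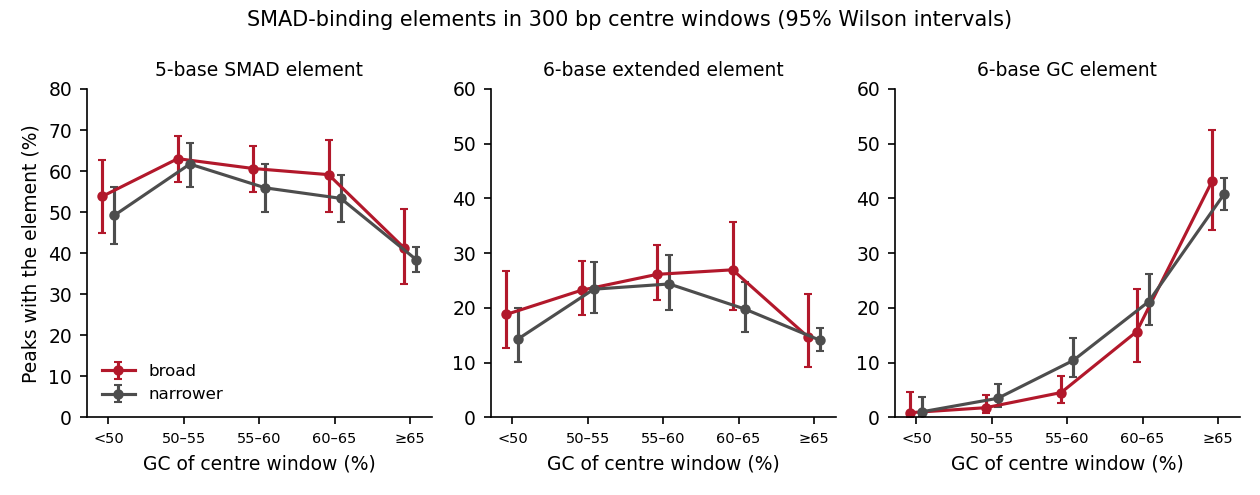
The 3 panels give the percentage of peaks with the CAGAC, the extended CAGACC and the GC-rich GGCGCC element in the 300 bp centre window, in 5 bands of the window's GC content (horizontal axes, percent). Red points are members, grey points narrower peaks and bars 95% Wilson intervals, which overlap between red and grey in every band. At 65% GC or more, GGCGCC is present in 43.1% of members and 40.8% of narrower peaks.

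Of 22350 protein-coding genes, 862 had a transcript start inside a member, or 3.86%. A start inside any E10.5 peak was found for 3012 genes (13.5%), and members held 28.6% of these. The genes of 25 lists on limb development, signalling, chromatin and housekeeping functions are counted against that 3.86% without a test, because neighbouring genes and wide peaks are not independent. In 16 lists at least 1 gene had a start inside a member and in 9 lists none had.

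The limb transcription factor list had the highest share, 16 of 46 genes (34.8%, 95% interval 22.7 to 49.2). Of its genes 26 (56.5%) had a start inside some E10.5 peak, so that 61.5% of those with a peak had a broad one of E10.5 alone. The best-scored of these were Irx5 and its Iroquois neighbour Irx3, which act in early proximal and anterior limb patterning. The Irx3 peak, chr8:94322781-94328843 (6063 bp), scored 155.7 and was centred within 0.26 kb of the start. Lmx1b, the determinant of dorsal limb identity, had a peak of 9302 bp at chr2:33493308-33502609 with a score of 124.0, which lay 5.51 kb from an E9.5 peak and whose nearest start was that of C130021I20Rik. Zbtb16, a regulator of proximal limb skeletal patterning, scored 109.1 (4242 bp, chr9:48642537-48646778).

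Among posterior HOX genes, which pattern the limb along its proximodistal axis, Hoxd11 had a peak of 5877 bp at chr2:74516933-74522809 (score 100.7) and Hoxd12 a separate one of 4142 bp (74.9) about 2 kb away. Hoxa13, needed for the hand and foot plate, had one of 4591 bp (89.4), and Hoxa10 one of 5126 bp (66.4) at an internal start. Sox9, the master regulator of chondrogenesis, had a peak of 5123 bp at chr11:112642189-112647311 that scored 95.7 and was centred in an intron 1.21 kb downstream of its start. Further genes of this list with a member were Hic1 (86.3), Sall1 (68.1), Mecom (66.3), Meis2 (61.8), Sall3 (58.5) and Tbx3 (41.9). The Tbx3 peak was 7002 bp wide despite its low score. In 13 of the 16 genes the 5′-most start of the gene lay inside the member, and in the others an internal start only.

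The lists of the BMP and TGF-β pathway were short. No receptor (0 of 13, which allows up to 23.1%) and no SMAD gene (0 of 8, up to 37.5%) had a start inside a member, although 4 receptors and 5 SMAD genes had a start inside another E10.5 peak. Among ligands, Tgfb3 (6332 bp, score 65.4) and Inhbb, an activin subunit (7039 bp, 65.2), had a member (2 of 13, 15.4%). Among BMP targets and inhibitors there were 3 of 19 (15.8%). These were Tgif1 and Tgif2, homeobox corepressors that bind SMADs, with scores of 108.2 and 80.1, and Msx1, a BMP-induced homeobox gene, with 67.6. The Tgif1 peak, chr17:71197838-71203287, was centred within 10 bp of a transcript start, and that at Msx1, chr5:38212293-38216468, 1.44 kb inside the gene. Of the genes with a start inside any E10.5 peak, members held 2 of 5 ligands and 3 of 9 targets and inhibitors, beside 28.6% over all genes.

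Among the other signalling lists, 3 of 13 annotated SHH pathway genes (23.1%) had a member, among them the ligand-binding membrane protein gene Gas1 (score 132.8, 4118 bp) and the receptor gene Ptch1 (89.5). The Ptch1 peak covered an internal start only. In the FGF list there were 6 of 21 (28.6%). Fgf4, a ligand of the apical ectodermal ridge, had a peak of 5032 bp at chr7:152045024-152050055 (score 117.2), and Dusp6, an FGF-induced ERK phosphatase, one of 4177 bp (85.3). The receptors Fgfr1 (54.6) and Fgfr4 (55.5) and the adaptor Frs3 (67.3) also had one. Fgfr2 was counted only through 1 annotated transcript that begins at the Ctbp2 start, far from the other Fgfr2 starts, and 5 of 21 remained without it.

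WNT pathway genes with a member were Dvl1, an intracellular transducer (10987 bp, score 144.5), the transcription factor Tcf7l1 (124.3), the coactivator Bcl9l (93.9), the ligand Wnt5a (74.1), the feedback inhibitor Axin2 (64.1) and the receptor Fzd1 (61.7), 6 of 35 (17.1%). The Dvl1 peak was centred 4.37 kb from the nearest Dvl1 start inside it. In the Notch list there were 6 of 28 (21.4%), namely the receptors Notch1 (100.6) and Notch4 (61.2), the coactivator Maml3 (90.3), the Fringe glycosyltransferases Rfng (83.2) and Lfng (67.6), and the γ-secretase subunit Ncstn (49.8). In the list of polarity and cytoskeletal regulators there were 5 of 25, which were the atypical cadherin genes Celsr2 (103.3), Celsr3 (100.8), Fat4 (60.4) and Dchs1 (59.4) and the receptor-like Ptk7 (58.3). The retinoic acid list had Rara (62.4) and Stra6 (53.2), 2 of 18 (11.1%), both at internal starts. The 5′-most start lay inside the member in 1 of the 3 SHH, 3 of the 6 WNT, 3 of the 6 Notch and 4 of the 5 polarity genes, and in the FGF list for Fgf4, Dusp6 and Frs3. Fgfr1 (by the longer of its annotated gene models), Fgfr4, Notch1, Notch4, Ncstn, Wnt5a, Axin2, Dvl1 and Dchs1 were counted through an internal start only. Of the genes with a start inside any E10.5 peak, members held 3 of 5 in the SHH list, 6 of 10 in the FGF list with Fgfr2 included, 6 of 16 in the WNT, 6 of 12 in the Notch, 5 of 8 in the polarity and 2 of 5 in the retinoic acid list. These are few genes to set against the 28.6% over all genes.

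Of the chromatin regulators with a start inside any E10.5 peak, members held 33.3% of the remodellers, 35.7% of the histone acetylation genes and 24% of the histone methylation genes, close to the 28.6% over all genes. Remodellers with a member were Chd4 (score 122.1, 8753 bp, chr6:125044475-125053227), Dpf1 (94.9), Smarcd3 (74.3), Smarcd2 (72.7) and Chd5 (53.9), 5 of 32 (15.6%). Histone methylation enzymes numbered 6 of 46 (13.0%) and included Nsd1, an H3K36 methyltransferase, with 156.2, Mll1, an H3K4 methyltransferase, with 112.3, and Ehmt2 with 109.1. Histone acetylation genes numbered 5 of 36 (13.9%), namely Sirt2 (93.7), the corepressor scaffold Sin3a (90.3), Hdac7 (72.7), Hdac10 (57.0) and Sirt6 (54.6). The 5′-most start lay inside the member in 2 of the 5 remodeller, 4 of the 6 methylation and 3 of the 5 acetylation genes. No Polycomb gene (0 of 30, 95% Wilson interval up to 11.4%) had one, while 7 of the 30 had a start inside another E10.5 peak. The KLF and SP zinc fingers with a member were Sp5 (147.9), Klf4 (94.6) and Klf16 (84.8), 3 of 26 (11.5%) and 3 of the 9 with a start inside any E10.5 peak. Cell cycle genes with a member were Ccnd3 (114.6), Ccnd1 (69.5) and the imprinted inhibitor Cdkn1c (68.4), 3 of 47 (6.38%). Of the 47, 19 had a start inside some E10.5 peak, and members held 15.8% of these.

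The lists of housekeeping functions and of transporters had from no member to a share of 5.50%. Of 327 solute carrier genes 18 had a member (5.50%, 3.51 to 8.53), led by the anion exchanger Slc4a2 (148.4, 10497 bp) and Slc7a4 (96.1). In all, 50 solute carrier genes had a start inside any E10.5 peak, and members held 36% of them. Mitochondrial ribosomal proteins had Mrpl43 (81.7) and Mrpl37 (80.3), 2 of 76 (2.63%). None was found among 81 cytoplasmic ribosomal proteins (Wilson interval up to 4.53%), 48 proteasome subunits (7.41%) and 52 Mediator and TAF subunits (6.88%). The same held for 39 splicing factors (8.97%), 67 replication-dependent histones (5.42%) and 17 genes of cholesterol synthesis (18.4%). Against the 3.86% over all genes, these zeros set little apart, since each of the upper limits lies above it. Starts inside any E10.5 peak were present in 6 of the 81 cytoplasmic ribosomal, 6 of the 48 proteasome, 10 of the 52 Mediator and TAF, 1 of the 67 histone and 1 of the 17 cholesterol genes, so few of these could have had a member. Of the 39 splicing genes 15 had one, 14 of them in a narrower peak.

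**Figure D5:**
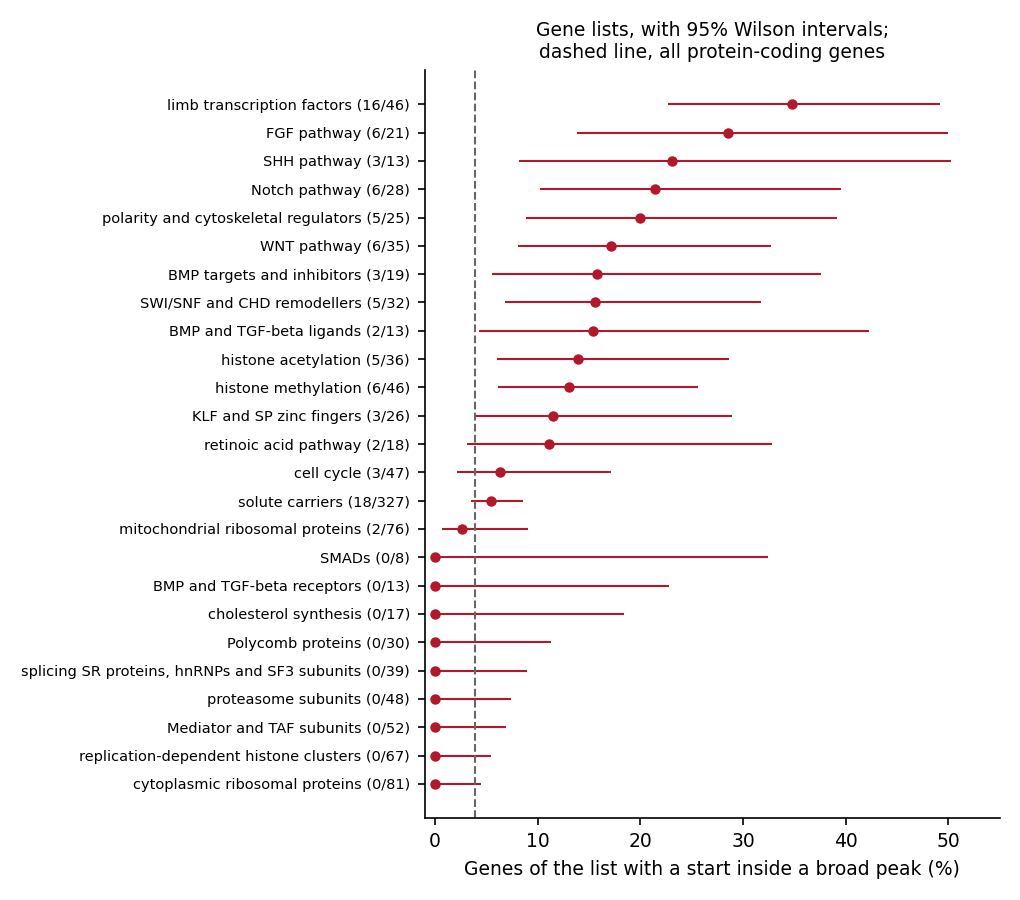
Each row is 1 of 25 gene lists with the number of its genes that had a start inside a member out of those annotated. Points give the percentage, bars the 95% Wilson interval and the dashed line the 3.86% of all protein-coding genes. The limb transcription factors lie farthest to the right at 34.8%, and 9 lists lie at 0.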

How the data were processed

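SMAD4 ChIP-seq and input libraries of both stages entered the analysis only as 2 peak lists. The authors aligned reads uniquely to mm9 with Bowtie 1.1.0, called peaks per replicate with MACS 1.4 against the input of the same sample at a permissive threshold, and combined replicates with MSPC, which kept replicated regions. The deposited score of each peak has no named unit in the lists and was used as given. Library depth is not given in the sources used here, so no depth-based precision can be stated, and intervals cover counting of peaks only.

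Peaks were joined to the mm9 genome (NCBIM37) and GENCODE vM1 transcripts in Python 3.11.15 (pysam 0.24.0 for sequence, pandas 2.3.3 and NumPy 2.4.6 for tables, SciPy 1.17.1 for tests, Matplotlib 3.10.9 for plots), with positions counted from 1. Samples were grouped from their titles. Members and gene lists were chosen with earlier results of these data known. Of 16 planned Fisher's exact tests, 8 measures were compared with each of 2 peak sets at a threshold of 0.05 on the adjusted p. Named peaks were the 10 best-scored, the 10 widest, 4 on either side of the width limit, and up to 6 genes per list by score. Genes of the limb transcription factor and other lists named beyond these were added to give more of the hits, and a few genes that the counts include are not reported here by name. The limits by distance, the peaks closest to E9.5 and those with several starts were named after their values were seen. Scripts were tested on simulated peaks. Width, distance, stage and GC settings were varied.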

Additional observations from a re-analysis of the deposited data

How the results depend on the processing

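No paired analysis was possible because both replicates of a stage were merged into 1 list before deposit and no replicate has values of its own. Depth is unknown, and the absence of a peak at E9.5 does not show absence of binding. Of 142 values from the listed settings, 114 kept their direction and their side of the threshold, or for a count stayed within 1.5 times. Of 54 values from settings added after seeing the data, 23 did. The cause of each change was not tested. Values are differences in percentage points, broad peaks of E10.5 alone minus the comparator.

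Against narrower peaks, the difference in CpG-island-like starts ranged from -41.9 to -7.43 points and kept its call except at a centre GC of 50 to under 60% (-7.43). CAGAC and GGCGCC lost their call only there (2.83 and -3.57), and CAGACC there (0.83), in windows at the start (2.88) and with the centre within 500 bp of a start (4.46). The divergent start lost its call with the centre within 500 bp (-4.24), at that GC content (-2.86) and with 5′-most ends (-1.28). The centre downstream lost its call at 6000 bp (-5.25), with protein-coding transcripts (-2.94), for scores at or above the median (-3.75) and at that GC content (-2.59). The protein-coding start gained a call for scores at or above the median (-3.83) and with 5′-most ends (-5.64), and turned to 3.95 at that GC content. GTCTAGAC, with few matches, turned to 0.0844 at 6000 bp, 0.0272 within 2.5 kb, 0.0047 above the median score and 0.0781 with peaks within 1 kb merged.

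Against the shared broad peaks, which numbered 9 at 6000 bp and 16 at a centre GC of 50 to under 60%, more values moved. CpG-island-like starts lost their call at 6000 bp (-30.6), within 500 bp (-25.8), at that GC content (-29.9) and with 5′-most ends (-18.5). GGCGCC lost it at 6000 bp (-17.6), within 2.5 kb (-12.2), in windows at the start (-0.0439), within 500 bp (-4.30), at that GC content (-3.10) and with 5′-most ends (-12.2). GTCTAGAC gained one with a width minimum of 3000 bp (-3.60) and in 500 bp windows (-4.12), and turned to 0.273 at 6000 bp and 0.110 at the start. Uncalled differences changed sign as follows: protein-coding start to 1.00 at 6000 bp, 0.0926 within 2.5 kb and 1.99 at that GC content; divergent start to 0.556 within 2.5 kb, 2.51 within 500 bp and 1.22 with 5′-most ends. The centre downstream turned to -4.92 at 6000 bp, -8.50 within 500 bp, -1.73 at that GC content and -1.56 with 5′-most ends. CAGAC turned to -15.5 at 6000 bp and -13.2 at that GC content, and CAGACC to -2.91 within 2.5 kb, -1.33 with merged peaks, -1.55 within 500 bp, -12.8 at that GC content and -0.116 with 5′-most ends.

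The number of members was 366 at a width minimum of 6000 bp, 587 for scores at or above the median, 255 with the centre within 500 bp and 571 at a centre GC of 50 to under 60%. The share of protein-coding genes with a start inside a member was then 1.73%, 2.55%, 1.27% and 2.37%.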
